A study of Mus musculus with 11 samples.

Results

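The peroxiredoxins and thioredoxins were followed in the aorta of old mice with and without dietary nitrate. The 10 genes were Prdx1 to Prdx6, Txn1, Txn2, the mitochondrial reductase Txnrd2 and Txnip, and every array probe carrying 1 of these gene names was taken, which gave 15 of the 55681 probes and 10 of the 36413 gene or transcript names on the array. Of the 15 probes, 14 were detected, and each of these was found and well above background on all 11 arrays. The remaining probe, 1 of 4 for Prdx6 (A_52_P388359), was not well above background on any array, so every gene was covered by at least 1 detected probe. The genes were picked by family, with earlier results of these data known.

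RNA of the descending aorta of male C57BL/6 mice aged 20 months was labelled with Cy3 and hybridized to one-color arrays, 1 mouse per array. Old nitrate treated mice (n = 5) had 1 g/L sodium nitrate (NaNO3) in their drinking water for 8 weeks. Old controls (n = 6) were given sodium chloride at the same concentration according to the methods of the study, whereas their labels read only control, describe the arrays as a renewed analysis of earlier samples and name no salt. No source used here says whether both groups were kept and handled together, so earlier handling and treatment cannot be told apart in any difference. A 6th nitrate array was not analysed here. Whole vessels were used after removal of the surrounding fat, so fewer cells of a type and less RNA per cell cannot be told apart. The comparison asks how long-term nitrate relates to transcript levels in the old vessel wall.

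All signals below are quantile normalized and on the log2 scale, and every difference is nitrate minus control. A transcript was called at an unadjusted P value under 0.05 in limma together with a fold change over 1.2, the study's kind of threshold. Under that rule 9% of the 23632 detected probes were called, 4.16% higher and 4.85% lower. Without the fold limit the share was 14.4%. With Benjamini-Hochberg adjustment over all of them, 0.0127% had an adjusted P value under 0.05, and none of the 10 genes was among these. The smooth muscle markers Acta2 and Tagln and the endothelial marker Vwf were detected on these arrays, as were the adipocyte marker Adipoq and the brown adipocyte marker Ucp1. The 3 slides each held arrays of both groups. All controls lay in the same slide column, which held no nitrate array, so column and treatment cannot be told apart. The array of control 1 stood apart in several of the values that follow, and the differences of Prdx4, Prdx5, Prdx3, Txn2, Txnrd2 and Txnip are given with and without it.

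Peroxiredoxins are thiol enzymes that reduce hydrogen peroxide, organic peroxides and peroxynitrite through a reactive cysteine. Most of them are returned to the reduced form by thioredoxin, which is in turn reduced by thioredoxin reductase with electrons from NADPH. Each compartment has its own set. Prdx1, Prdx2, Prdx6 and Txn1 act mainly in the cytosol, Prdx3, Txn2 and Txnrd2 in mitochondria, Prdx5 in mitochondria, peroxisomes and cytosol, and Prdx4 in the endoplasmic reticulum. Txnip is an arrestin-like protein that binds thioredoxin and limits glucose uptake.

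Short upstream sequences are shown for the genes whose promoters carry a binding motif of the clock, the antioxidant response or glucose sensing, because groups of such genes were measured on the same arrays. RefSeq promoters of build GRCm38.p6 were found for 9 of the 10 genes, all but Prdx6, and the 250 bases before each annotated start were searched on both strands. The E-box CACGTG, which clock and MYC family proteins bind, was found in Prdx4 and in no other of the 9, and in 6.02% of all 32851 promoters. The antioxidant response element TGACNNNGC was found in Prdx1 alone of the 9 and in 10.2% of all promoters. A pair of CACGAG boxes spaced by 5 bases, which has the form of the carbohydrate response element of Txnip and was read from that gene, was found in 1 of the 32851 promoters, that of Txnip. The ER stress element, CCAAT and CCACG spaced by 9 bases (0.113% of all promoters), and the D-box TTATGTAA (0.819%) were not found in the 9. Each sequence runs 5′ to 3′ along the gene, and the capitals mark the named motif.
Prdx4 (chrX:155338461-155338710, minus strand): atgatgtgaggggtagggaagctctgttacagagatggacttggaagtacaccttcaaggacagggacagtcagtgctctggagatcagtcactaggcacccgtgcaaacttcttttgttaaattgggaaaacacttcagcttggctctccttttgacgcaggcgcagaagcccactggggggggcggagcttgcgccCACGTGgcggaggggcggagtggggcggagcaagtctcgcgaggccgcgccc
Prdx1 (chr4:116685349-116685598, plus strand): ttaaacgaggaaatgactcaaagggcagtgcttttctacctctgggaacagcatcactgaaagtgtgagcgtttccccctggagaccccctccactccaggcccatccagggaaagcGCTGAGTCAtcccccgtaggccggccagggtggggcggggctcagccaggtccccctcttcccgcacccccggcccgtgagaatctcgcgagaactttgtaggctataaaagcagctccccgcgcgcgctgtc
Txnip (chr3:96557707-96557956, plus strand): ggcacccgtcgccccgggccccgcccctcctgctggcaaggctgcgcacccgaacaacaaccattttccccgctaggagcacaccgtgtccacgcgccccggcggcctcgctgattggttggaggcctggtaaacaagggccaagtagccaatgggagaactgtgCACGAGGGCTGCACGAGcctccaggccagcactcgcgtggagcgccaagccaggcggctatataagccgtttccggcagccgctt
The E-box of Prdx4 began 52 bases before the start, the paired boxes of Txnip 85 bases and the element of Prdx1, which lies on the opposite strand, 133 bases. A match of letters is a description and shows no binding.

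Of the probes themselves, those of Prdx5 and the second of Txnip are shown as examples. Both are named below and hold a reading frame without a stop codon in their 60 bases. Other probes of the family, such as those of Txn1 and Prdx1, hold such a frame too and are not shown. The sequences are given in lower case on the transcript's strand, with no part marked, and their positions are in mm9, the build of the files.
Prdx5 probe A_55_P1979463 (chr19:6981371-6981430, minus strand): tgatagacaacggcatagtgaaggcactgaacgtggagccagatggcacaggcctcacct
Txnip probe A_55_P2006255 (chr3:96364206-96364265, plus strand): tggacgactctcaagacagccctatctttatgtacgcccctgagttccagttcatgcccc

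Across the family, differences were small. Each gene was represented by the brightest of its detected probes. By these, 8 genes were lower and 2 higher in nitrate treated mice, with a median difference of -0.08 on the log2 scale against 0.01 for all detected probes, of which 46.2% were lower. Prdx4 was higher and Prdx5 lower at an unadjusted P value under 0.05, and that P value was reached by 7.71% of detected probes with a higher and 6.66% with a lower signal. With the fold limit, 1 gene was called lower (Prdx5) and 0 higher, although 2 of the 10 genes had an unadjusted P value under 0.05. Without control 1 the count was again 1 lower and 0 higher, but the gene was Txnip and not Prdx5. The smallest adjusted P value of the family was 0.161 (limma), that of Prdx4. The study lists Prdx4 and Prdx5 among the altered genes of these same mice, so their direction here is not independent evidence.

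**Figure D1:**
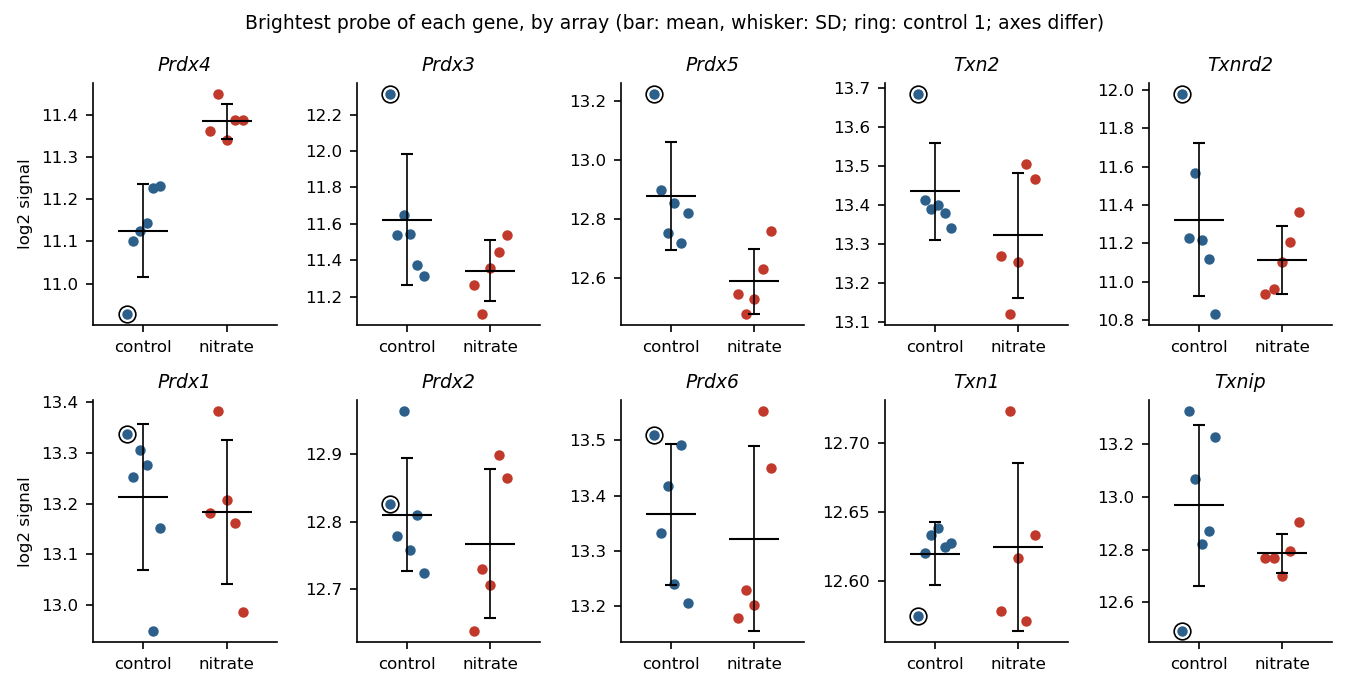
Log2 signal (y axis, scale differs between panels) of the brightest probe of each of the 10 genes in 6 control and 5 nitrate arrays (x axis), with the mean as a bar, the SD as a whisker and control 1 ringed. The 5 nitrate values of Prdx4 lie between 11.34 and 11.45, above all control values, and control 1 is the highest array for Prdx3, Prdx5, Txn2 and Txnrd2.

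Prdx4, the peroxiredoxin of the endoplasmic reticulum, which uses peroxide to form disulfide bonds in new proteins, had the clearest separation. The only probe under its gene name lies at chrX:151758471-151758530 in mm9, and a probe that the files name by transcript and describe as peroxiredoxin 4 was detected on 0 of 5 nitrate and 2 of 6 control arrays and was not tested. The log2 signal was 11.36, 11.45, 11.34, 11.39 and 11.39 in nitrate treated mice 1 to 5. In controls it was 10.93 at the lowest, 11.13 at the median and 11.23 at the highest. Every nitrate value lay above every control value, a separation found in 1.61% of all detected probes in this direction. The mean was 11.38 ± 0.04 (SD, n = 5) with nitrate and 11.13 ± 0.11 (SD, n = 6) without. The difference was 0.259 with a standard error of 0.066 and a 95% confidence interval from 0.114 to 0.403 (adjusted P = 0.161, limma). In an exact permutation test, two-sided, P was 0.00216, the smallest that the 462 divisions of the mice allow. A change of 1.2-fold is 0.263 on this scale, so Prdx4 fell just short of being called. Within the 3 slides the difference was 0.39, 0.15 and 0.21. When single arrays were dropped the difference was 0.22, without control 1, to 0.28, each time at an unadjusted P value under 0.05, and it passed the fold limit when nitrate 1, nitrate 3, control 5 or control 6 was left out.

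The signals most like that of Prdx4 over the 11 arrays, among 15482 probes of other genes, were those of Etv5 (Pearson r = 0.98), an ETS family transcription factor, Ephx1 (0.97), the microsomal epoxide hydrolase, and Pkig (0.97), an inhibitor of protein kinase A. These are likenesses over 11 arrays of 2 groups, with no test. Ephx1 also belongs to the list of NRF2 targets and differed by 0.41. As it was named for its likeness to Prdx4, no P value is given. The gene of Prdx4 carries the E-box shown above, and clock genes differed between the groups. Of 18 clock genes, 15 were detected, 8 were called higher and 4 lower, 1 of the latter (Npas2) detected on 2 of 5 nitrate arrays and so tested only through the controls, where it was high. Per2, a repressor of the clock, was higher by 0.95 (exact permutation P = 0.00433) and Arntl, an activator, was lower by 1.24 (exact permutation P = 0.0476). The part of these differences in the Prdx4 result was not tested.

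Other proteins of disulfide formation in the secretory pathway were measured through the list of further thiol genes. Qsox1, a sulfhydryl oxidase that puts disulfides into secreted proteins, had log2 signals of 13.41, 13.63, 13.34, 13.28 and 13.25 with nitrate. In controls the range was 12.60 to 13.20 with a median of 13.15, so the groups did not overlap. Such a separation was found in 1.61% of all detected probes in this direction. Qsox1 rose by 0.35 with a standard error of 0.12 (adjusted P = 0.253, limma; exact permutation P = 0.00649). Without control 1 it was higher by 0.26, just under the fold limit. Ero1l, the oxidase that passes electrons from protein disulfide isomerase to oxygen, had log2 signals of 7.69, 7.54, 7.51, 7.40 and 7.27 with nitrate and of 6.95 to 7.45 in controls. These ranges overlapped, and Ero1l rose by 0.28 with a standard error of 0.11 (adjusted P = 0.285, limma; exact permutation P = 0.0346). Ero1l was no longer called without nitrate 1 (0.23), control 1 (0.25) or control 5 (0.24). In the array of control 1, Prdx4 and Qsox1 were both at their lowest, and without control 1 and nitrate 4 together Prdx4 was higher by 0.22 and Qsox1 by 0.28, both at an unadjusted P value under 0.05. The oxidase Ero1lb and the disulfide isomerases of the list, named after their values were seen, did not pass the test. Ero1lb differed by -0.17 (exact permutation P = 0.121), with all 5 nitrate values below the control median. The isomerases differed by 0.12 (P4hb), 0.04 (Pdia3), -0.01 (Pdia4) and -0.04 (Pdia6) by their brightest probes. The second Pdia6 probe differed by -0.13, under the fold limit and with 4 of 5 nitrate values below every control (exact permutation P = 0.0303, adjusted P = 0.401).

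Prdx5, the peroxiredoxin of mitochondria, peroxisomes and cytosol, was lower with nitrate. The log2 signal of the probe shown above was 12.54, 12.48, 12.53, 12.63 and 12.76 in nitrate treated mice 1 to 5. In controls it was 12.72 at the lowest, 12.84 at the median and 13.23 at the highest, the last in control 1. Nitrate treated mice 1 to 4 lay below every control, and nitrate 5 lay above the lowest 2 controls. Prdx5 fell by 0.29 with a standard error of 0.09 and a 95% confidence interval from -0.50 to -0.08, which is a 1.22-fold change (adjusted P = 0.238, limma; exact permutation P = 0.0108). Within the 3 slides the difference was -0.55, -0.31 and -0.04. Without control 1 it was -0.22, under the fold limit but still at an unadjusted P value under 0.05. Dropping single arrays gave -0.33 to -0.22, under that P limit each time, and without nitrate 2 Prdx5 also fell under the fold limit.

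A second probe for the same gene, which the files name only by the transcript ENSMUST00000099807 and describe as peroxiredoxin 5, was looked up after the values were seen. It had log2 signals of 13.89, 13.92, 13.90, 14.17 and 14.18 with nitrate and from 14.09 to 14.38 in controls. Nitrate treated mice 1 to 3 lay below every control, and mice 4 and 5, both on slide 3, lay within the control range. The difference was -0.18 with a standard error of 0.08 (adjusted P = 0.34, limma; exact permutation P = 0.0628). It was under the fold limit.

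The other mitochondrial members had lower means with nitrate, and the differences were smaller without control 1. Prdx3, which removes most of the hydrogen peroxide of the mitochondrial matrix, had log2 signals of 11.27, 11.10, 11.36, 11.45 and 11.54 with nitrate. In controls it ranged from 11.31 over a median of 11.54 to 12.31, and all 5 nitrate values lay below that median. The difference was -0.28 with a standard error of 0.16 (exact permutation P = 0.113, adjusted P = 0.445), and -0.14 without control 1. Txn2, the mitochondrial thioredoxin that serves Prdx3, had log2 signals of 13.27, 13.12, 13.25, 13.51 and 13.47 with nitrate and of 13.34 to 13.69 in controls, a difference of -0.11 with a standard error of 0.09 (exact permutation P = 0.227, adjusted P = 0.59), and of -0.06 without control 1. Txnrd2, the selenoenzyme that reduces Txn2, ranged from 10.93 to 11.36 with nitrate and from 10.83 to 11.98 in controls, a difference of -0.21 with a standard error of 0.18 (exact permutation P = 0.327, adjusted P = 0.617), and of -0.08 without control 1. The nitrate and control ranges overlapped for each of the 3 genes, and none passed the test.

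Levels of several members were correlated from array to array, and the mitochondrial members were only part of that pattern. By its brightest probe, each of the 4 mitochondrial members had its highest value of all 11 arrays in control 1. A further Txn2 probe, named only by transcript, was highest in control 6 (6.65) and not in control 1 (6.41). It differed by -0.18. That probe was detected on 3 of 5 nitrate and 5 of 6 control arrays and so was tested only through the controls, and its P value is not given. All 45 pairs of the 10 genes were compared over the 11 arrays (permutation test with 100000 resamples, adjusted over the 45 pairs). The 6 pairs of mitochondrial members had Pearson correlations from 0.73 to 0.94, and 5 of them had an adjusted P value under 0.05. Of the 39 other pairs, 2 positive and 2 negative correlations also did. For Prdx3 and Txnrd2 the Pearson correlation was 0.94 (permutation P = 6e-05, adjusted 0.0027) and Spearman's rho 0.93 (permutation P = 8e-05, adjusted 0.0036), and r was 0.92 without control 1 and nitrate 2, the arrays farthest from the median of Prdx3. For Prdx5 and Txnrd2 r was 0.73 (permutation P = 0.0162, adjusted 0.0722) and rho 0.59 (permutation P = 0.0609, adjusted 0.183), and r dropped to 0.23 without the same arrays. Between these extremes r without the 2 arrays was 0.56 for Prdx3 and Prdx5, 0.60 for Prdx3 and Txn2, 0.47 for Prdx5 and Txn2, and 0.52 for Txn2 and Txnrd2. The positive pairs outside the mitochondrial members both held Prdx6. With Prdx2 its r was 0.82 (permutation P = 0.00192, adjusted 0.0144) and rho 0.88 (permutation P = 0.00059, adjusted 0.0133), and r was 0.93 without control 3 and nitrate 1. With Txn2 its r was 0.75 (permutation P = 0.00338, adjusted 0.019) and rho 0.81 (permutation P = 0.00393, adjusted 0.0537), and r was 0.63 without control 1 and nitrate 4. Prdx6 entered these pairs by its brightest probe alone, which was highest in nitrate 4 (13.55). Its other detected probes were both highest in control 1 (12.78 and 12.06) and were not compared. The negative pairs held Prdx4. Its r was -0.90 with Prdx5 (permutation P = 0.00039, adjusted 0.00585; rho = -0.75, permutation P = 0.0102, adjusted 0.0572) and -0.82 with Prdx3 (permutation P = 0.00173, adjusted 0.0144; rho = -0.74, permutation P = 0.0128, adjusted 0.0618). Without control 1 and nitrate 2 these were -0.74 and -0.51. Both groups enter these correlations, so a difference between the groups can add to them or take from them. With group means removed, the 6 mitochondrial pairs had r from 0.74 to 0.94, and from 0.34 to 0.88 without control 1 as well. Prdx4 then had r of -0.78 with Prdx5 and -0.91 with Prdx3, and of -0.31 and -0.69 without control 1. For Prdx6 it was 0.81 with Prdx2 and 0.76 with Txn2, and 0.85 and 0.74 without control 1. The slides held 3 or 4 arrays each, too few for a correlation within a slide. By slide, the differences were -0.74, -0.07 and -0.02 for Prdx3, -0.35, -0.12 and 0.10 for Txn2, and -0.65, 0.08 and -0.06 for Txnrd2, with the largest of each within slide 1, which held control 1.

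**Figure D2:**
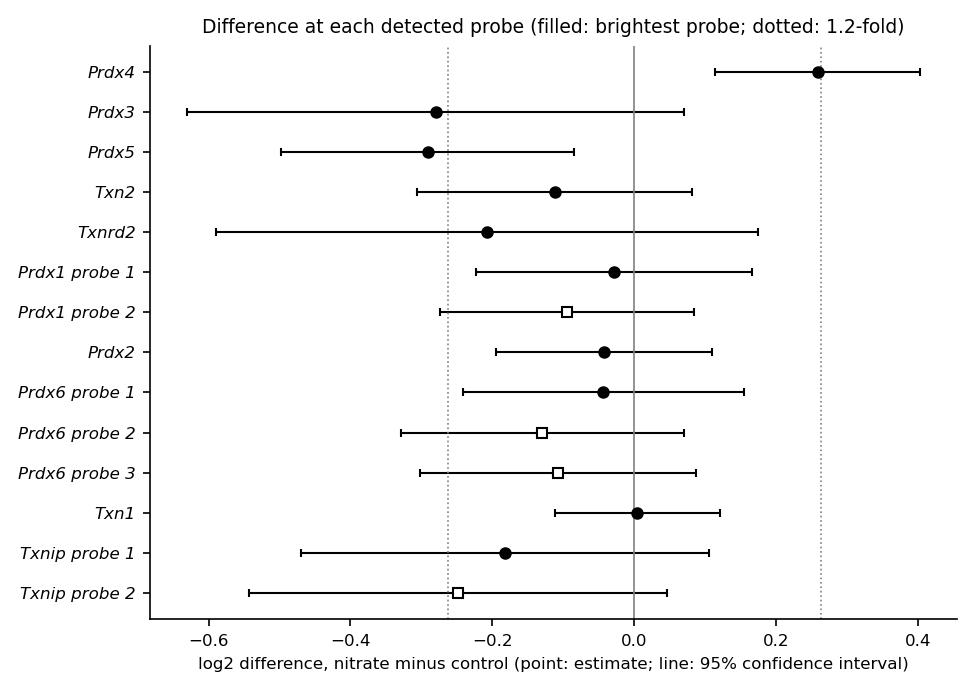
Difference in log2 signal, nitrate minus control (x axis), for the 14 detected probes (y axis), with 95% confidence intervals from limma over 5 nitrate and 6 control arrays. The interval of Prdx4 lies above 0 and that of Prdx5 below 0, and the other 12 intervals include 0.

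The genes most like Prdx5 over the 11 arrays also encode mitochondrial proteins. They were Higd2a (Pearson r = 0.98), which takes part in assembling respiratory complexes, Fdx1 (0.98), a mitochondrial ferredoxin, and Ndufa2 (0.97), a subunit of complex I. Their differences were -0.21, -0.33 and -0.21. As above, these are likenesses without a test, among 15482 probes.

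Brown adipocytes are rich in mitochondria, and their genes were measured in the same arrays. All 12 genes of the brown adipocyte list were detected, 9 with a lower mean with nitrate and 2 called lower, with a median difference of -0.16. The mean log2 signal of the list was 12.07, 11.66, 12.16, 12.81 and 12.79 with nitrate and ranged from 12.14 to 13.03 in controls, the highest in control 1. Over the 11 arrays the level of Txn2 followed this mean with a Pearson correlation of 0.93 (permutation P = 8e-05, adjusted 0.0016) and a Spearman correlation of 0.85 (permutation P = 0.00141, adjusted 0.0282), where the adjustment covers 20 relations of the 10 genes with 2 lists. The correlation of Txn2 was 0.84 without control 1 and nitrate 2, the arrays farthest from the list's median. For Prdx3 it was 0.73 (permutation P = 0.00966, adjusted 0.0966), for Prdx5 0.69 (permutation P = 0.0194, adjusted 0.107) and for Txnrd2 0.62 (permutation P = 0.0403, adjusted 0.134), with rho of 0.58, 0.60 and 0.51. Without these arrays it was 0.28 for Prdx3, 0.21 for Prdx5 and 0.22 for Txnrd2, so these 3 relations rest on control 1 and nitrate 2. The relation was not limited to mitochondrial members. For the mainly cytosolic Prdx6 r was 0.68 (permutation P = 0.0215, adjusted 0.107) and rho 0.75 (permutation P = 0.011, adjusted 0.11), with r of 0.61 without these arrays. For Txn1 r was -0.65 (permutation P = 0.03, adjusted 0.12) and rho -0.36 (permutation P = 0.271, adjusted 0.498), with r of -0.05 without them. Of the 10 genes, Txn2 alone passed the adjustment. A general adipocyte list, which holds genes that white and brown fat share, was measured too. Of its 20 genes 19 had lower means and 13 were called lower, Adipoq by 0.49, and the list mean was 12.64 to 13.06 with nitrate and 12.98 to 13.73 in controls, again highest in control 1. The part of adipocyte RNA in the mitochondrial members' values was not tested.

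**Figure D3:**
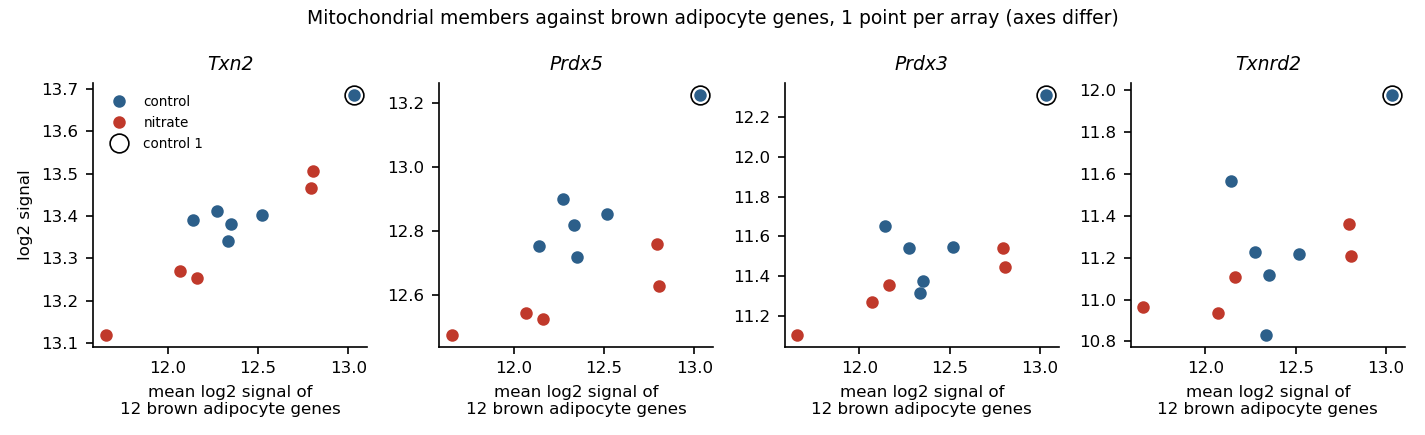
Log2 signal of the 4 mitochondrial members (y axes, scales differ) against the mean log2 signal of 12 brown adipocyte genes (x axis), 1 point per array, with control 1 ringed. Txn2 rises along the whole x axis (r = 0.93), while for Prdx5 each nitrate point lies below the control points nearest to it on the x axis.

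The cytosolic members showed no difference beyond the spread between mice. Prdx1, a major peroxidase of the cytosol and a textbook NRF2 target, ranged from 12.99 to 13.38 with nitrate and from 12.95 to 13.34 in controls. Its difference was -0.03 with a 95% confidence interval from -0.22 to 0.17 (exact permutation P = 0.734), and the sign turned without normalization between arrays. The second Prdx1 probe gave -0.09 (exact permutation P = 0.258). Txn1, the cytosolic thioredoxin that reduces Prdx1 and Prdx2, had the smallest spread of the 10 genes among controls. It ranged from 12.57 to 12.72 with nitrate and from 12.57 to 12.64 in controls, and the difference was 0.005 with a 95% confidence interval from -0.112 to 0.121 (exact permutation P = 0.931). Its sign turned under scaling to the 75th percentile.

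Prdx2, abundant in red blood cells, ranged from 12.64 to 12.90 with nitrate and from 12.72 to 12.96 in controls, with a difference of -0.04 and a 95% confidence interval from -0.20 to 0.11 (exact permutation P = 0.487). Of the 15 red blood cell genes 13 were on the array and 6 detected, 5 with a lower and 1 with a higher mean with nitrate, a median difference of -0.45 and 0 called. Hba-a1 was at 14.28 with nitrate and 14.73 in controls (exact permutation P = 0.251), and the list mean ranged from 10.57 to 11.89 with nitrate and from 10.90 to 12.23 in controls. Over the 11 arrays Prdx2 did not rise with this mean (Pearson r = -0.22, permutation P = 0.507, adjusted 0.634; rho = -0.37, permutation P = 0.26, adjusted 0.498), and r was -0.94 without controls 2 and 3, the arrays farthest from the list's median.

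Prdx6, the peroxiredoxin with 1 active cysteine and a phospholipase activity, had 3 detected probes. They differed by -0.04, -0.13 and -0.11 (exact permutation P = 0.623, 0.186 and 0.253), each with an interval that included 0. The brightest ranged from 13.18 to 13.55 with nitrate and from 13.21 to 13.51 in controls, with nitrate 4 and 5 at the top of their group. The undetected probe gets no difference. A probe for the pseudogene Prdx6-ps2, named after its values were seen and open to cross-binding by Prdx6 RNA, differed by -0.21, under the fold limit. It was detected, that is both found and well above background, on 2 of 5 nitrate and 6 of 6 control arrays and so was tested only through the group where it was high, and its P value is not given.

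Txnip, the thioredoxin-binding arrestin, varied widely among controls. The log2 signal of its brightest probe was 12.77, 12.77, 12.70, 12.79 and 12.90 with nitrate. In controls it was 12.49 at the lowest, 12.97 at the median and 13.33 at the highest, and the lowest was control 1. All 5 nitrate values lay below the control median and above control 1. The difference was -0.18 with a standard error of 0.13 (adjusted P = 0.551, limma; exact permutation P = 0.225). Without control 1, where the other controls ranged down to 12.82, Txnip was lower by 0.28 and was called. The second probe, shown above, gave -0.25 with all arrays (exact permutation P = 0.139) and -0.30 without control 1, where it too was called. Within the 3 slides the difference of the brightest probe was -0.14, -0.33 and -0.12.

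Genes with a pattern like that of Txnip over the 11 arrays, among 15481 probes, were Cblb (Pearson r = 0.92), a ubiquitin ligase, Eif4b (0.86), a translation initiation factor, and Vps37b (0.85), a subunit of the endosomal sorting machinery. Of the other arrestin domain genes, Arrdc5 was not detected, and Arrdc1 and Arrdc2 differed by 0.12 (exact permutation P = 0.219) and 0.21 (exact permutation P = 0.0909). Arrdc3, an adaptor of receptor ubiquitination, had log2 signals of 9.01, 8.78, 8.63, 8.40 and 8.63 with nitrate and of 8.15 to 8.46 in controls. Only nitrate 4 fell within the control range, and Arrdc3 rose by 0.34 with a standard error of 0.11 (adjusted P = 0.227, limma; exact permutation P = 0.0108). Without nitrate 1 its difference was 0.26, just under the fold limit. Arrdc3 was detected on all 5 nitrate arrays but on 3 of 6 control arrays, so it was tested only through the group where it was high, and its P values support nothing by themselves. Arrdc4, the closest relative of Txnip in its response to glucose, had a difference of 0.17 with a standard error of 0.15 (exact permutation P = 0.344). The 2 detected Arrdc4 probes disagreed on control 1. It was the highest array for this brighter probe, whose difference without it was 0.30 and was called. For the other probe, with a difference of 0.20 (exact permutation P = 0.0649), control 1 was the lowest array, and without it the difference was 0.15, under the fold limit.

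Beyond the 10 genes, the list of further thiol genes held 54 names. They were thioredoxin-like, glutaredoxin, sulfiredoxin, sestrin, methionine sulfoxide reductase and protein disulfide isomerase genes, thiol oxidases (Qsox1, Ero1l and Ero1lb), thioredoxin and glutathione reductases, arrestin domain genes (Arrdc1 to Arrdc5), ribonucleotide reductase subunits, selenoproteins, and Map3k5 and Apex1. Of these 53 were on the array and 46 detected, 29 with a higher and 17 with a lower mean. At an unadjusted P value under 0.05, 6 rose and 2 fell, and with the fold limit 3 were called higher (Qsox1, Arrdc3 and Ero1l) and 0 lower. Over all detected probes, 7.71% rose and 6.66% fell at that P value, and 4.16% were called higher and 4.85% lower. Arrdc3 counted as detected only through the nitrate group, where it was high. The 3 called genes are 2 thiol oxidases and an arrestin domain gene, not thioredoxins or peroxidases. The list's median difference was 0.04 against 0.01 for all detected probes. Named after their values were seen, Txndc16, an endoplasmic reticulum protein with thioredoxin domains, rose by 0.24 (exact permutation P = 0.0173), the methionine sulfoxide reductase Msrb1, called Sepx1 on the array, by 0.17 (exact permutation P = 0.0195) and the selenoprotein Sep15 by 0.16 (exact permutation P = 0.0152). Txndc16 and Txnl4a, a thioredoxin-like splicing protein, are also in the study's own gene list for these mice, so neither is independent evidence. The 2 detected Txnl4a probes disagreed. The brighter differed by 0.02 (exact permutation P = 0.751) and the other by -0.23 without overlap between the groups (exact permutation P = 0.00433, adjusted P = 0.192), still under the fold limit. Of all detected probes, 1.14% were separated in this way with nitrate lower. Tmx2, a thioredoxin-related membrane protein named afterwards too, fell by 0.17 without overlap between the groups (exact permutation P = 0.00433), a separation that 1.14% of detected probes had in this direction, whereas its second probe differed by -0.07 (exact permutation P = 0.626). Txndc12, an endoplasmic reticulum thioredoxin, fell by 0.17 (exact permutation P = 0.013). By their brightest probes, none of the 8 genes at an unadjusted P value under 0.05 had an adjusted P value under 0.2.

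**Figure D4:**
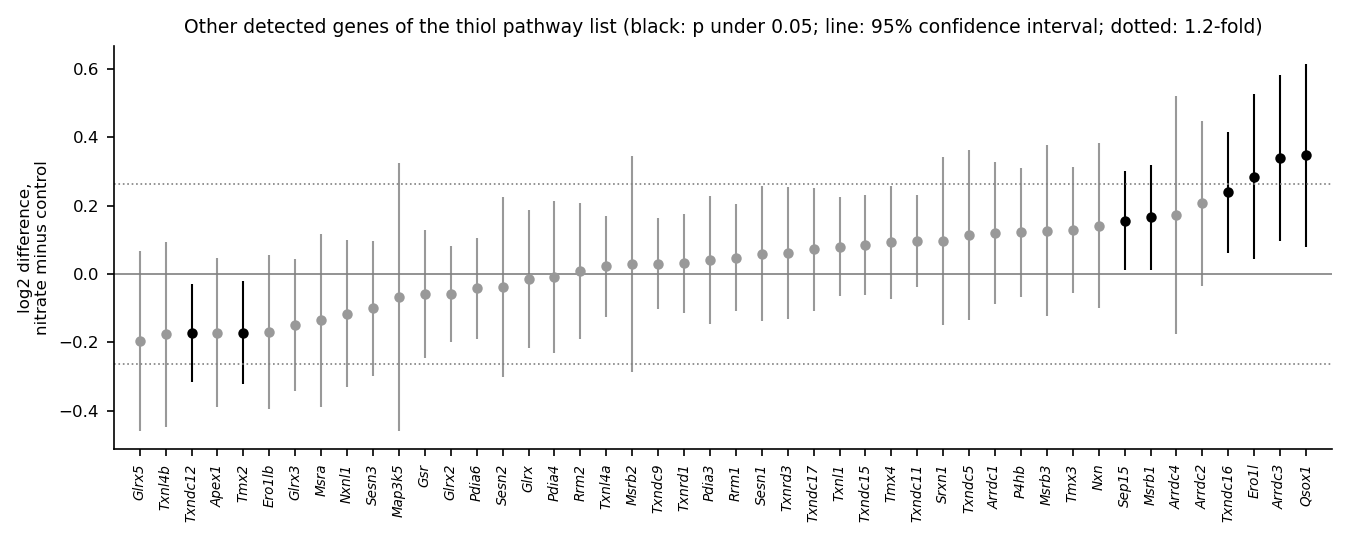
Difference in log2 signal, nitrate minus control (y axis), for the 46 detected genes of the further thiol list (x axis, in order of the difference), with 95% confidence intervals from limma. The 8 genes at an unadjusted P value under 0.05 are in black, 6 above 0 and 2 below, and Qsox1, Arrdc3 and Ero1l lie beyond the 1.2-fold line.

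The reductases and repair enzymes that serve the cytosolic members showed no difference that passed the test. Txnrd1, the cytosolic thioredoxin reductase, differed by 0.03 with a standard error of 0.06, and Txnrd3 by 0.06. Srxn1, which restores overoxidized peroxiredoxins, differed by 0.10 with a standard error of 0.11. The sestrins, stress proteins linked to peroxiredoxin repair and nutrient sensing, differed by 0.06 (Sesn1), -0.04 (Sesn2) and -0.10 (Sesn3). Gsr, glutathione reductase, differed by -0.06 and Glrx, glutaredoxin, by -0.01. Nucleoredoxin (Nxn) differed by 0.14, the thioredoxin-bound kinase Map3k5 by -0.07 and the methionine sulfoxide reductase Msra by -0.14. Without control 1 Nxn differed by 0.05 and Msra by -0.07. Prdx1, Txnrd1 and Srxn1 are textbook NRF2 targets. Of the 20 further NRF2 target genes 17 were detected, of which 3 were called higher and 2 lower. Hmox1, heme oxygenase, rose by 0.30 (exact permutation P = 0.0152) and Gsta4, a glutathione transferase, fell by 0.58 (exact permutation P = 0.00866). Gsta4 and Ephx1 are also in the study's own gene list for these mice, so neither is independent evidence.

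Few markers of smooth muscle, macrophages, endothelium and heart muscle were called, and the list means of the groups overlapped. Of the 12 smooth muscle genes 11 had higher means with nitrate and 1 was called higher, with list means from 13.91 to 14.18 against 13.48 to 14.02 in controls, the lowest in control 1. Macrophage genes ranged from 8.81 to 9.46 with nitrate and from 8.84 to 9.35 in controls, with 0 of 14 called, and endothelial genes from 10.23 to 10.34 and from 10.23 to 10.48, with 1 of 12 called lower. Heart muscle genes, 8 of 10 detected, had list means of 12.29 in nitrate 4, 11.75 in control 1 and 9.57 in nitrate 5, and between 6.95 and 8.36 in the other arrays. With control 1 and nitrate 4 both left out, the difference was 0.22 for Prdx4, -0.23 for Prdx5 and -0.28 for Txnip, each at an unadjusted P value under 0.05, and 1 member was called lower (Txnip) and 0 higher. The part of these cells in the members' differences was not tested otherwise.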

How the data were processed

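Gene expression was measured on 11 one-color Agilent mouse arrays, 5 of old nitrate treated mice and 6 of old controls, grouped by their labels. The authors deposited spot intensities with flags from Feature Extraction 10.7.1.1, with background subtracted but no scaling between arrays. A table of log2 values was deposited too. Compared with each array's intensities, it was found to be quantile normalized and centred on each probe's median, and its column medians were 0 apart from -0.00868 in nitrate 4 and -0.0268 in control 5.

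Processed signals under 1 were set to 1 before log2. Control and outlier-flagged spots were dropped (5 in all for Prdx3, which has 10 spots per array), replicate spots were averaged and arrays were quantile normalized. A probe was tested if it was found and well above background on 5 or more arrays of a group. Groups were compared with lmFit and eBayes (R 4.3.3, limma 3.58.1), with Benjamini-Hochberg adjustment over all 23632 probes, so adjusted P values are limma's. Permutation tests were two-sided, and differences of undetected probes were not tested. The number of arrays limits the precision. The fit was tested on simulated data. Probe names and mm9 positions are those of the files.

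The members and the gene lists were chosen with earlier results of these data known. The named genes were every member, the called genes of the thiol list and 12 others of it fixed by name, the 3 most correlated genes of Prdx4, Prdx5 and Txnip, and up to 3 genes of each other list. Further genes of the thiol list were named outside this rule, among them Arrdc1, Arrdc2, Txnl4a and Txndc12 and those marked as named afterwards. Alternatives covered normalization, background correction, offset, the deposited log2 table, detection, flags, prior variance, slide, slide row, replicate number, fold limit, adjustment, choice of probe and each array left out. Leaving out control 1 and nitrate 4 together was chosen after seeing the data.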

Additional observations from a re-analysis of the deposited data

Results flagged for a closer look

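Within groups, single arrays lay far from the rest by Dixon's test at the 95% level, given as the gap to the nearest array over the group's range. Among the controls it was control 1 in each of the 8 cases. Control 1 was highest for Prdx3 (0.662), Prdx5 (0.643), Txn2 (0.796), the brighter probe of Arrdc4 (0.726) and the heart muscle list mean (0.707), and lowest for Txn1 (0.718), Nxn (0.689) and the smooth muscle list mean (0.745). In the nitrate group nitrate 3 was highest for Sesn2 (0.718). Of 39 values tested in each group, chance alone would mark about 1.95, against 8 for the controls and 1 for the nitrate group. For the other detected Arrdc4 probe control 1 was the lowest array. The values share arrays and are not independent.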

How the results depend on the processing

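Prdx4 was higher at an unadjusted limma P value under 0.05 in each of its 25 alternatives, and Prdx5 lower in each of its 25 except without normalization between arrays (difference -0.258), where the P value was over 0.05. Whether Prdx4 passed the fold limit varied. The number of members called higher was 1 and not 0 with scaling to the 75th percentile, without normalization, with slide as a block, without a fold limit and at an adjusted P value under 0.2, and 0 to 1 with single arrays left out. The number called lower was 0 and not 1 without normalization and at adjusted P values under 0.05 and 0.2, and 0 to 1 with single arrays left out, 0 without nitrate 2. The transcripts called were 1218 with normexp, 3224 without a detection filter, 3394 without a fold limit, 3 at an adjusted P value under 0.05, 593 under 0.2, and 1596 to 2424 with single arrays left out, against 2128. The share higher among them was 65.3% without normalization and 35.8% with normexp, against 46.1%. Ero1l lost its call with normexp (0.180) and with an offset of 16 (0.258).

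Signs turned in small differences that passed no test. These were Txn1 (-0.00582) with the 75th percentile, and Prdx1 (0.00333), Sesn2 (0.0253) and Glrx (0.0343) without normalization. With single arrays left out the differences were -0.0814 to 0.0206 for Prdx1, -0.0201 to 0.0179 for Txn1, -0.105 to 0.0263 for Sesn2, -0.0479 to 0.0481 for Glrx and -0.170 to 0.0696 for Map3k5. Without control 1 and nitrate 4 they were 0.00193 for Prdx1, -0.000837 for Txnrd1 and 0.0357 for Glrx, and Sesn3 (-0.188) passed the P limit. The causes were not tested.

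Arrays of the same replicate number did not all deviate together (correlations of 0.01, 0.12, -0.14, -0.13 and 0.18), so the numbers were not used as pairs. These few correlations cannot exclude a pairing. The nitrate and control arrays of replicates 1, 2 and 5 shared a slide, and those of replicates 3 and 4 did not. With replicate number as a block and without control 6, 2433 transcripts were called, and Prdx4 differed by 0.280 and Prdx5 by -0.302, both called (1 member higher, 1 lower). Leaving out control 6 alone gave the same differences and calls, so the gained call is not due to the block. Signal over background left 1 Prdx6 probe untested, and Arrdc3, Npas2, Prdx6-ps2 and the Txn2 probe named by transcript were tested only through 1 group.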
